A study of Homo sapiens with 8 samples.

Results

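The 43 interferon-stimulated genes described here are a list of genes that vertebrate cells switch on when they meet interferon or viral nucleic acid. They were taken from the expression table by symbol. All 43 were measured, among 19775 genes, by 78 of 41091 probe sets that carry exactly 1 gene symbol. The cells were Reh, an established human line of B-cell precursor acute lymphoblastic leukaemia. They had been transfected with control constructs only (mock), with IRF5-4D, a constitutively active form of the transcription factor IRF5, with IKKβ(EE), a constitutively active form of the kinase IKKβ, or with IRF5-4D plus IKKβ(EE), called the combination below. Each group had 2 biological duplicates, numbered 1 and 3, on Affymetrix U133 Plus 2.0 arrays, so 8 arrays were compared. All groups therefore share 1 cell line and the transfection itself. The sources used here do not state which vectors drive the constructs, what share of the cells took them up or when the cells were harvested.

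Interferon-stimulated genes encode the effector arm of innate antiviral defence. Type I and type III interferons signal through the kinases JAK1 and TYK2 to a transcription factor complex that contains IRF9 and binds the interferon-stimulated response element (ISRE) in the promoters of these genes. Interferon regulatory factors such as IRF3, IRF5 and IRF7 recognise related sequences and can act on some of the same promoters without interferon, and IRF5 is also a factor that induces interferon genes. IKKβ, encoded by IKBKB, releases NF-κB from its inhibitors, and NF-κB acts on a separate DNA motif, the κB site.

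The deposited values are log2 expression values. Array medians over all probe sets lay between 5.10 and 5.14 and lower quartiles between 3.67 and 3.73. A level near the lower quartile is not shown to lie above background, so a fold change that starts there is uncertain. The 10 measured B-lineage markers averaged 11.04 to 11.31 per array, but the lowest of them, VPREB1, named after its values were seen, read only 4.06 to 4.46. The 9 T and NK cell markers averaged 4.70 to 4.92 and the 6 myeloid markers 4.54 to 4.92, but the NK cell marker NKG7 was 1.34 (SE 0.19, limma adjusted p = 0.00512) higher in the combination than in mock cells. Its part in the results was not tested. The 1 responsive probe set of IKBKB, of 3, read 4.80 and 4.06 on the mock arrays and 12.57 and 10.98 with IKKβ(EE). It read 11.11 and 9.33 in the combination and 4.68 and 4.60 with IRF5-4D, so both groups that received the kinase stood far above the others. The IRF5 probe set with the highest mean read 6.93 and 7.06 in mock cells and 7.15 and 7.25 with IRF5-4D. It read 6.95 and 7.13 with IKKβ(EE) and 8.002 and 7.82 in the combination, the group in which it stood highest. The signal of this probe set in the combination was 0.71 (SE 0.13, limma adjusted p = 0.0379, fit of every probe set) above that with IRF5-4D alone, and its part in the differences between these groups was not tested. The sources used here do not state whether this probe set detects the transfected sequence. The other 2 IRF5 probe sets differed by -0.07 (SE 0.17, limma adjusted p = 0.921) and 0.23 (SE 0.14, limma adjusted p = 0.590) in the same comparison, so the call was made for 1 of the 3. With IRF5-4D against mock, the former of these 2 differed by 0.57 (SE 0.17), the latter by 0.05 (SE 0.14) and the highest one by 0.20 (SE 0.13), and none passed. The former read 5.65 and 5.66 with IRF5-4D and 5.56 and 5.60 in the combination. It read 5.355 and 4.82 in mock cells and 5.13 and 5.04 with IKKβ(EE). In such a bulk measurement, a response of all cells and a stronger response of a transfected fraction cannot be told apart, nor can fewer cells of a type and less RNA per cell.

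The promoters are shown because the ISRE, through which many of these genes are known to be switched on, can be looked for in them. RefSeq promoter sequences on GRCh38.p14, which run from 250 bases before to 50 bases after each start, were matched by symbol for 34 of the 43 genes, with 47 entries. The ISRE core was searched as GAAANNGAAA on both strands, with overlapping matches counted. It was present in 30 of the 47 entries (63.8%), against 3.57% of all 35116 promoter entries. By gene, 25 of 34 (73.5%) had it in some entry, against 4.38% of 27305 genes. The κB consensus was present in 6 of 47 entries (12.8%), against 5.91% of all entries. By gene, 6 of 34 (17.6%) had it in some entry, against 7.09% of 27305 genes. Among the genes that rose in the combination (below), 12 of 12 with an entry held the ISRE core and 1 of 12, IFIH1, held a κB match. Among the genes that did not pass the test there, 13 of 22 held the ISRE core and 5 of 22 a κB match. A match is a run of letters and is not shown to be bound. The genes without an entry were OAS2, GBP2, USP18, IFIT2, ZBP1, DHX58, MX2, TRIM22 and OASL.

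The 170 bases before the start are printed for the 6 genes that rose most in the combination and have an entry, on the strand of the gene, 5′ to 3′, with the bases of ISRE core matches on either strand in capitals. ISG20 lies at chr15:88638846-88639015 on the plus strand, IFI44L at chr1:78620278-78620447 (plus), RSAD2 at chr2:6877607-6877776 (plus), IFIH1 at chr2:162318685-162318854 (minus), EPSTI1 at chr13:42992242-42992411 (minus) and IFIT5 at chr10:89414398-89414567 (plus). For RSAD2 the entry with a match is shown, and its other entry held none.
ISG20: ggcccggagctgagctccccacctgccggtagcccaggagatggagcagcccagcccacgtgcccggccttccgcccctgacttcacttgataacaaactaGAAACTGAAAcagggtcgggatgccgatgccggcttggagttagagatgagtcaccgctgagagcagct
IFI44L: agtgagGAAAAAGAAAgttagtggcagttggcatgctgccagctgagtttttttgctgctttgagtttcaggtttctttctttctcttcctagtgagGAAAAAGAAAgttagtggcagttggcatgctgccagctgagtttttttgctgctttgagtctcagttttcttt
RSAD2: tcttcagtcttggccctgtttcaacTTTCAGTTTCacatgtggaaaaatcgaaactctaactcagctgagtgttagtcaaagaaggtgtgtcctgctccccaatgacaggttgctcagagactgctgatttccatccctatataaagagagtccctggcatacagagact
IFIH1: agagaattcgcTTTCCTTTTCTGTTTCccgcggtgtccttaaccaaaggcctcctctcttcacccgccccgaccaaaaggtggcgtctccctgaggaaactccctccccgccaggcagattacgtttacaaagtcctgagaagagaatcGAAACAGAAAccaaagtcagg
EPSTI1: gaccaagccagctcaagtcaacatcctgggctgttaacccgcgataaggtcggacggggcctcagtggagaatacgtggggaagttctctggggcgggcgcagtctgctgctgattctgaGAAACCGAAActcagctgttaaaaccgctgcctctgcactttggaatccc
IFIT5: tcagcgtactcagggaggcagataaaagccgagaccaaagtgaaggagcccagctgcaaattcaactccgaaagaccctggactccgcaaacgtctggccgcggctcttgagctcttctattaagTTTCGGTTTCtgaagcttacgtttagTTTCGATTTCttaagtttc
In these stretches ISG20, RSAD2 and EPSTI1 held 1 match each, IFI44L and IFIT5 held 2, and IFIH1 held 3, of which 2 overlap.

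Shorter windows are shown for IFIT1 and IFIT3, neighbours in which the groups ranked in different orders, and for ISG15, which did not pass the test in any comparison although it holds the same element. IFIT1 is shown at chr10:89392505-89392544, the IFIT3 entries at chr10:89327860-89327899 and chr10:89332463-89332502, and ISG15 at chr1:1013369-1013414, all on the plus strand.
IFIT1: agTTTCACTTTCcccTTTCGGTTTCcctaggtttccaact
IFIT3, first entry: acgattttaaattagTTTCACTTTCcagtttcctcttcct
IFIT3, other entry: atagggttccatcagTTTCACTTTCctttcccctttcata
ISG15: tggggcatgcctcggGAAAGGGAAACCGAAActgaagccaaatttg
The 2 matches of IFIT1 lie close together and the 2 of ISG15 overlap. Each IFIT3 entry also holds 2 matches, as IFIT1 does, but they lie farther apart and the window shows 1 of them.

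Taken over all 43 genes, the largest response was in the combination. A gene was called when limma's adjusted p over all 19775 genes was under 0.05. Against mock cells, 15 genes rose in the combination and 0 fell, where 2.66% of all genes were called higher and 0.501% lower. With IRF5-4D alone 3 genes rose and 0 fell, against 0.314% and 0.00506% of all genes. With IKKβ(EE) alone limma called 0 higher and 0 lower, against 0.516% and 0% of all genes. Of the 43, 13 had an unadjusted limma p under 0.05 there, beside 1434 of all 19775 genes. The median log2 difference of the 43 genes was 0.50 in the combination, 0.23 with IKKβ(EE) and 0.15 with IRF5-4D, against -0.027, -0.025 and -0.016 over all genes. Differences above 0 were found for 41, 39 and 30 of the 43 genes, and for 8778, 8653 and 9041 of all 19775 genes. In the combination both arrays lay above both mock arrays for 33 genes and below them for 0, where 19.4% and 25.1% of all genes did so. In all, 28 genes were called in no comparison.

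**Figure D1:**
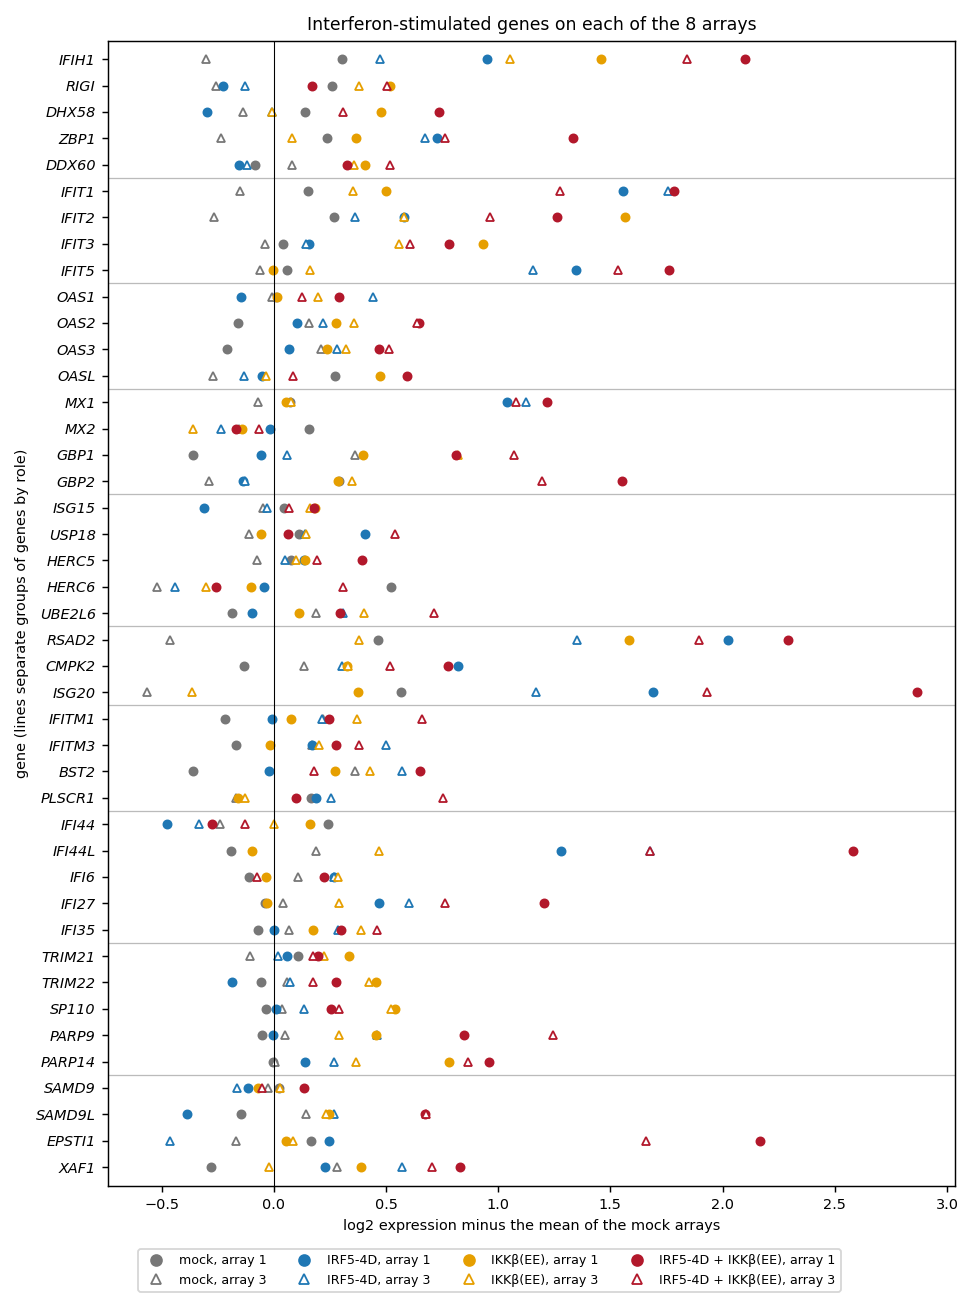
Log2 expression of each of the 43 genes on each of the 8 arrays, minus the mean of the mock arrays, with genes grouped by role; circles are arrays numbered 1 and triangles arrays numbered 3. The combination arrays (red) lie farthest right for ISG20, IFI44L, IFIH1 and EPSTI1, whereas IFIT1 and MX1 lie equally far right with IRF5-4D alone (blue).

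The IFIT genes encode proteins that bind viral RNA and block its translation. In the combination 3 of the 4 rose, beside 2.66% of all genes. IFIT5, which binds RNA with triphosphate ends, read 7.92 and 7.80 on the mock arrays, 9.21 and 9.02 with IRF5-4D, 7.86 and 8.03 with IKKβ(EE) and 9.62 and 9.40 in the combination. Both groups that received IRF5-4D stood apart from both groups that did not. The rise in the combination was 1.65 on the log2 scale (SE 0.14, 3.14-fold, limma adjusted p = 0.000225). IFIT1, which binds RNA whose cap lacks host methylation, read 8.54 and 8.24 in mock cells, 9.95 and 10.15 with IRF5-4D, 8.89 and 8.74 with IKKβ(EE) and 10.18 and 9.67 in the combination. Its values with IRF5-4D and in the combination overlapped, and the combination stood 1.53 (SE 0.18, 2.89-fold, limma adjusted p = 0.00244) above mock. IFIT3, which stabilises the binding of IFIT1 to RNA, followed another order. It read 10.74 and 10.66 in mock cells, 10.86 and 10.84 with IRF5-4D, 11.63 and 11.26 with IKKβ(EE) and 11.48 and 11.31 in the combination. The groups that received IKKβ(EE) were the high ones, and the combination stood 0.69 (SE 0.14, 1.62-fold, adjusted p = 0.0368) above mock. IFIT2, the remaining member of the family, read 9.83 and 9.30 in mock cells, 10.15 and 9.93 with IRF5-4D, 11.13 and 10.14 with IKKβ(EE) and 10.83 and 10.53 in the combination. Its difference in the combination was 1.11 (SE 0.30, 2.16-fold) and did not pass (adjusted p = 0.0904), with arrays 1 and 3 of IKKβ(EE) 0.99 apart. When 1 array at a time was left out, IFIT1 and IFIT5 were called in the combination in all 8 fits. IFIT3 was not called without either mock array, either IRF5-4D array or either combination array, and its difference ranged from 0.61 to 0.78.

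Among the sensors of viral nucleic acid, 2 of 5 rose in the combination, beside 2.66% of all genes. IFIH1, which encodes the double-stranded RNA sensor MDA5, read 9.17 and 8.56 on the mock arrays, 9.82 and 9.34 with IRF5-4D, 10.33 and 9.92 with IKKβ(EE) and 10.97 and 10.71 in the combination. The 4 groups did not overlap, and they ranked mock, IRF5-4D, IKKβ(EE) and the combination. The combination was 1.97 (SE 0.24, 3.92-fold, limma adjusted p = 0.00254) above mock. ZBP1, a sensor of Z-form nucleic acid that can trigger necroptosis, read 4.43 and 3.96 in mock cells, 4.93 and 4.87 with IRF5-4D, 4.56 and 4.28 with IKKβ(EE) and 5.53 and 4.96 in the combination. Both groups with IRF5-4D stood above both groups without it. The combination was 1.05 (SE 0.21, 2.07-fold, adjusted p = 0.0345) above mock. That call was lost without mock array 3, either IRF5-4D array, either IKKβ(EE) array or combination array 1, with differences from 0.76 to 1.33 over the 8 fits. The other 3 sensors, RIGI, DHX58 and DDX60, did not pass, and the median of the group was 0.52.

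The enzymes that act on nucleotides and RNA held the largest rise in the list. ISG20, an exonuclease that degrades single-stranded RNA, read 9.07 and 7.94 in mock cells, 10.19 and 9.67 with IRF5-4D, 8.88 and 8.14 with IKKβ(EE) and 11.37 and 10.43 in the combination. The IKKβ(EE) arrays lay between the mock arrays, the IRF5-4D arrays lay above them and the combination arrays were the highest. Its rise was 2.40 (SE 0.42, 5.27-fold, limma adjusted p = 0.0161). RSAD2, which encodes viperin, the enzyme that makes a chain-terminating nucleotide, read 8.30 and 7.37 in mock cells, 9.86 and 9.19 with IRF5-4D, 9.42 and 8.22 with IKKβ(EE) and 10.13 and 9.73 in the combination. Each of the 3 groups with an active construct was above mock on the mean, but array 3 of IKKβ(EE) lay within the mock range. The combination was 2.09 (SE 0.41, 4.27-fold, adjusted p = 0.0296) above mock. The spread between duplicates was wide for both genes, 1.13 between the mock arrays for ISG20 and 1.20 between the IKKβ(EE) arrays for RSAD2. The call for ISG20 was lost without mock array 3 or combination array 1, with differences of 1.83 and 1.93. That for RSAD2 was lost without mock array 3 (1.63), either IRF5-4D array (2.09) or either combination array (1.89 and 2.29). CMPK2, a mitochondrial nucleotide kinase, differed by 0.65 (SE 0.18) and did not pass (adjusted p = 0.110).

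Of the MX and GBP genes, which encode dynamin-like GTPases, 2 of 4 rose in the combination, beside 2.66% of all genes. MX1, an inhibitor of influenza virus and other viruses, read 7.08 and 6.94 on the mock arrays, 8.05 and 8.13 with IRF5-4D, 7.06 and 7.09 with IKKβ(EE) and 8.23 and 8.09 in the combination. The IKKβ(EE) arrays were within the mock range or close to it, and the IRF5-4D arrays were level with the combination. The combination was 1.15 (SE 0.12, 2.22-fold, limma adjusted p = 0.000849) above mock. GBP2, which coats intracellular pathogens, read 5.45 and 4.87 in mock cells, 5.02 and 5.03 with IRF5-4D, 5.45 and 5.51 with IKKβ(EE) and 6.71 and 6.35 in the combination. The single constructs overlapped mock or lay next to it, and both combination arrays lay above all 6 others. The rise was 1.37 (SE 0.19, 2.59-fold, adjusted p = 0.00551). Both genes were called in all 8 fits with 1 array left out. MX2, the neighbour of MX1, and IFI44 were the 2 genes of the list below 0 in the combination, at -0.12 (SE 0.15) and -0.20 (SE 0.17), and neither passed.

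EPSTI1, an interferon-induced gene of little-understood function, was higher in the combination than in each of the 3 other groups. Its arrays read 4.26 and 3.92 in mock cells, 4.34 and 3.63 with IRF5-4D, 4.14 and 4.18 with IKKβ(EE) and 6.26 and 5.75 in the combination. All 6 arrays without both constructs were low, near the lower quartile, and both combination arrays were high. The rise was 1.91 (SE 0.24, 3.77-fold, limma adjusted p = 0.00327), and it was called against mock in all 8 fits with 1 array left out. SAMD9, SAMD9L and XAF1, listed with it, did not pass.

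Of the 5 genes named IFI, IFI44L and IFI27 rose in the combination, beside 2.66% of all genes. IFI44L read 3.76 and 4.14 in mock cells, 5.23 and 5.62 with IRF5-4D, 3.85 and 4.41 with IKKβ(EE) and 6.53 and 5.62 in the combination. Its mock and IKKβ(EE) arrays overlapped near the lower quartile, and the IRF5-4D and combination arrays touched at 5.62. The combination was 2.13 (SE 0.30, 4.37-fold, limma adjusted p = 0.00564) above mock, and it was called in all 8 fits with 1 array left out. IFI27, which encodes a small mitochondrial protein, read 5.34 and 5.42 in mock cells, 5.85 and 5.98 with IRF5-4D, 5.35 and 5.67 with IKKβ(EE) and 6.58 and 6.14 in the combination. Its order was the same, with the combination 0.98 (SE 0.17, 1.98-fold, adjusted p = 0.0152) above mock. That call was lost without mock array 1 (0.94) or combination array 1 (0.76).

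The ADP-ribosyltransferase family genes PARP9 and PARP14 rose, and both were also above mock on the mean with IKKβ(EE) alone. PARP14 read 8.68 and 8.69 in mock cells, 8.83 and 8.96 with IRF5-4D, 9.47 and 9.06 with IKKβ(EE) and 9.65 and 9.55 in the combination. The groups did not overlap, and the combination was 0.91 (SE 0.15, 1.88-fold, limma adjusted p = 0.0111) above mock. PARP9, the partner of the ubiquitin ligase DTX3L, read 9.04 and 9.14 in mock cells, 9.09 and 9.55 with IRF5-4D, 9.55 and 9.38 with IKKβ(EE) and 9.94 and 10.34 in the combination. The combination arrays were the highest, 1.05 (SE 0.18, 2.06-fold, adjusted p = 0.0170) above mock. PARP9 lost its call without mock array 1 (0.99), mock array 3 (1.10) or combination array 3 (0.85), and PARP14 without mock array 1 (0.91) or combination array 1 (0.87). TRIM21, TRIM22 and SP110, listed with them, did not pass.

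OAS2 was the 1 gene of 4 in its family that rose in the combination, beside 2.66% of all genes. The OAS enzymes make oligoadenylates that activate RNase L, and OAS2 read 6.82 and 7.14 in mock cells, 7.08 and 7.20 with IRF5-4D, 7.26 and 7.34 with IKKβ(EE) and 7.63 and 7.62 in the combination. The combination arrays were the highest and 0.64 (SE 0.13, 1.56-fold, limma adjusted p = 0.0366) above mock. This call was lost in 7 of the 8 fits with 1 array left out, all but that without mock array 3, with differences from 0.48 to 0.80. It was also lost when arrays were centred on their medians (0.59, limma adjusted p = 0.0568).

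No gene of the ISG15 conjugation system passed in the combination, with a median of 0.29 over 5 genes. A count of 0 of 5 is near the 2.66% of all genes called higher there. ISG15, the ubiquitin-like modifier, read 10.66 and 10.57 in mock cells, 10.31 and 10.59 with IRF5-4D, 10.80 and 10.78 with IKKβ(EE) and 10.80 and 10.68 in the combination. The combination and IKKβ(EE) arrays lay side by side, just above the mock arrays, and the combination differed by 0.12 (SE 0.13, limma adjusted p = 0.713). Its ligase HERC5 differed by 0.29 (SE 0.12, adjusted p = 0.289) and its conjugating enzyme UBE2L6 by 0.50 (SE 0.21, adjusted p = 0.269). The membrane proteins also held no call among 4 genes, which is near that share too, with a median of 0.42. IFITM3, which blocks the fusion of viruses in endosomes, differed by 0.33 (SE 0.16, adjusted p = 0.374) and the phospholipid scramblase PLSCR1 by 0.43 (SE 0.20, adjusted p = 0.351). TRIM22, a ubiquitin ligase, differed by 0.23 (SE 0.13, adjusted p = 0.438). A p that misses the threshold does not show that these genes were unaffected.

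The count of 15 called genes changed when arrays were left out and with the other groups in the model. It ranged from 8, without combination array 1, to 14 with 1 array left out, and was 9 when the model held mock and combination arrays only. The 7 genes called in all 8 fits with 1 array left out were IFIT1, IFIT5, MX1, IFIH1, GBP2, IFI44L and EPSTI1. Of these, GBP2 was not called in the fit of mock and combination arrays only, and IFIH1 not when probe sets were averaged. RSAD2 and ISG20 lost their calls with limma's robust variance.

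**Figure D2:**
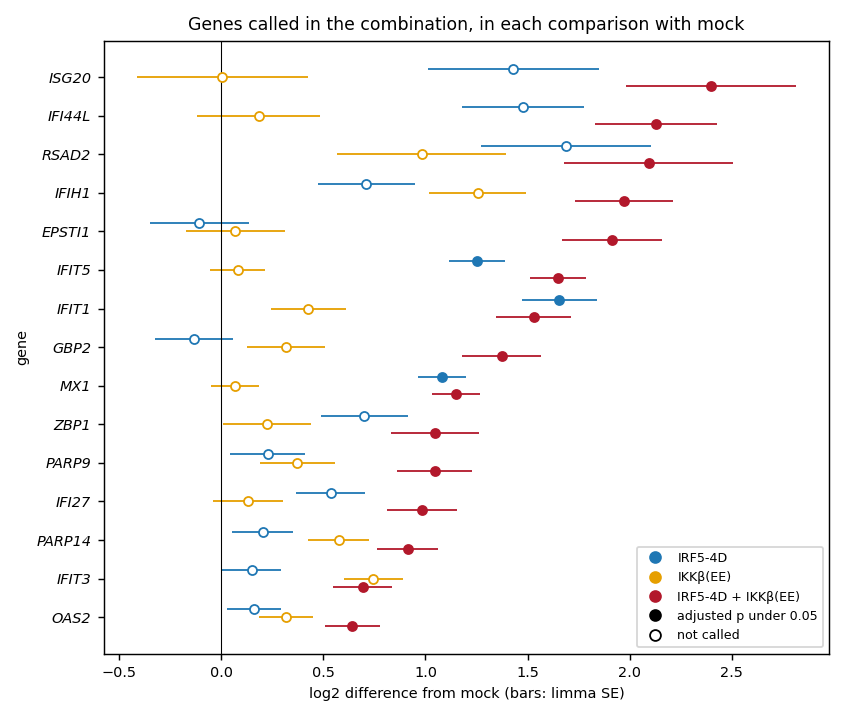
Log2 difference from mock, with the limma SE, for the 15 genes called in the combination (red), and for the same genes with IRF5-4D (blue) and IKKβ(EE) (yellow); filled points passed an adjusted p under 0.05. IFIT1 and MX1 sit at similar values with IRF5-4D and in the combination, and EPSTI1 and GBP2 sit near 0 with either construct alone.

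The comparison of IRF5-4D with mock asked which genes an active IRF5 moves on its own. IFIT1 rose by 1.66 (SE 0.18, limma adjusted p = 0.00588), IFIT5 by 1.25 (SE 0.14, adjusted p = 0.00508) and MX1 by 1.08 (SE 0.12, adjusted p = 0.00511). These were the 3 calls. Larger or similar differences with wider spread did not pass. RSAD2 differed by 1.69 (SE 0.41, adjusted p = 0.402), IFI44L by 1.48 (SE 0.30, adjusted p = 0.172) and ISG20 by 1.43 (SE 0.42, adjusted p = 0.667). Both IRF5-4D arrays lay above both mock arrays for each of these 6 genes, and for 17 of the 43 in all, where 13.4% of all genes did so. They lay below both mock arrays for 3 genes, where 17.8% of all genes did so. With 1 array left out, IFIT1 lost its call without mock array 3 or either IRF5-4D array. MX1 lost it without either IRF5-4D array and IFIT5 without IRF5-4D array 1. The differences ranged from 1.51 to 1.81 for IFIT1, 1.01 to 1.15 for MX1 and 1.16 to 1.35 for IFIT5.

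In the comparison of IKKβ(EE) with mock, the largest differences were those of IFIH1, IFIT2, RSAD2 and IFIT3. IFIH1 differed by 1.26 (SE 0.24, limma adjusted p = 0.0740), IFIT2 by 1.07 (SE 0.30, adjusted p = 0.318), RSAD2 by 0.98 (SE 0.41, adjusted p = 0.658) and IFIT3 by 0.74 (SE 0.14, adjusted p = 0.0807). None of them passed in this model, which leaves the replicate number out. With the replicate number as a block these 4 genes were called, but what that number stands for is not stated. Both IKKβ(EE) arrays lay above both mock arrays for 20 genes and below them for 0, where 15.1% and 21.2% of all genes did so.

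The single constructs were also compared with each other directly. IFIT1 was 1.23 (SE 0.18, limma adjusted p = 0.0169), IFIT5 1.17 (SE 0.14, adjusted p = 0.00497) and MX1 1.02 (SE 0.12, adjusted p = 0.00497) higher with IRF5-4D than with IKKβ(EE). These 3 of 43 compare with 0.314% of all genes called in that direction. In the other direction 0 of the 43 were called, against 0.45% of all genes. Both IRF5-4D arrays lay above both IKKβ(EE) arrays for 8 genes (20% of all genes) and below them for 16 (18.4% of all genes). IFIT3 was -0.59 (SE 0.14, adjusted p = 0.179) with IRF5-4D relative to IKKβ(EE) and did not pass. With 1 array left out, the calls fell to 0 without IRF5-4D array 1 or IKKβ(EE) array 1 and to 1 without the array 3 of either group.

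The combination was then compared with each single construct, which asked what the second construct added. Against IKKβ(EE) alone 8 genes were higher and 0 lower, where 1.37% and 0.349% of all genes were. They were ISG20 by 2.39 (SE 0.42, limma adjusted p = 0.0241), IFI44L by 1.94 (SE 0.30, adjusted p = 0.0140), EPSTI1 by 1.84 (SE 0.24, adjusted p = 0.00611) and IFIT5 by 1.57 (SE 0.14, adjusted p = 0.000499). IFIT1 at 1.10, MX1 at 1.08, GBP2 at 1.06 and IFI27 at 0.85 completed the group. Against IRF5-4D alone 3 genes were higher and 0 lower, where 1.22% and 0.187% of all genes were. EPSTI1 was 2.02 (SE 0.24, adjusted p = 0.00464), GBP2 1.51 (SE 0.19, adjusted p = 0.00650) and IFIH1 1.26 (SE 0.24, adjusted p = 0.0421) above IRF5-4D. EPSTI1 and GBP2 were therefore the 2 genes above both single constructs. Of the 15 genes called against mock, 6 were above neither single construct. For IFIT1 and MX1 the combination differed from IRF5-4D by -0.13 and 0.067, and neither difference passed. The combination arrays lay above both IRF5-4D arrays for 30 genes and below them for 1, where 20.5% and 21.7% of all genes did so. They lay above both IKKβ(EE) arrays for 21 genes and below them for 4, where 20.7% of all genes did so in each direction.

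These counts also changed when 1 array was left out. Where that array was in neither group compared, the difference stayed the same and only the estimate of spread and the adjusted p changed. The 8 calls against IKKβ(EE) became 2 without IKKβ(EE) array 1, 3 without IKKβ(EE) array 3 or combination array 1, and 5 without either IRF5-4D array. The 3 calls against IRF5-4D became 1 without either IRF5-4D array, and that gene was EPSTI1. Among the named calls against IKKβ(EE), that for IFI27 was lost in 7 of the 8 fits with 1 array left out, with differences from 0.63 to 1.07, and those for GBP2 and ISG20 in 5 each, with differences from 0.88 to 1.24 and from 1.92 to 2.86. That for IFIT1 was lost in 3 and those for IFI44L and EPSTI1 in 2 each. Against IRF5-4D, the call for IFIH1 was lost in 6 of the 8 and that for GBP2 in 2.

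The interaction (combination plus mock, minus the sum of the single constructs, in log2 units) tested whether the constructs together departed from the sum of their separate differences. It was called for 0 of the 43 genes in limma, against 0.0961% of all genes called higher and 0.0303% lower. Of the 43, 2 had an unadjusted limma p under 0.05, beside 1206 of all 19775 genes, which is a similar share. The 2 were EPSTI1 at 1.95 (SE 0.34, adjusted p = 0.116) and GBP2 at 1.19 (SE 0.27, adjusted p = 0.265). IFIH1 was at 0.0044 (SE 0.34). The median SE of the interaction was 0.26 for these genes, wider than the 0.18 of a comparison of 2 groups.

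The difference that IRF5-4D made without IKKβ(EE) and the one it made with it rest on separate arrays, so they were set side by side. Across the 43 genes the pair correlated at a Pearson r of 0.71 and a Spearman rho of 0.59, and 30 genes had the same sign. For IKKβ(EE), without and with IRF5-4D, r was 0.30 and rho 0.38, and 36 genes had the same sign. Over all 19775 genes r was 0.43 and rho 0.17 for IRF5-4D, with the same sign in 10954 genes, and r was 0.42 and rho 0.25 for IKKβ(EE), with the same sign in 11542 genes. These are descriptions across genes of the same arrays, and genes are not independent replicates.

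**Figure D3:**
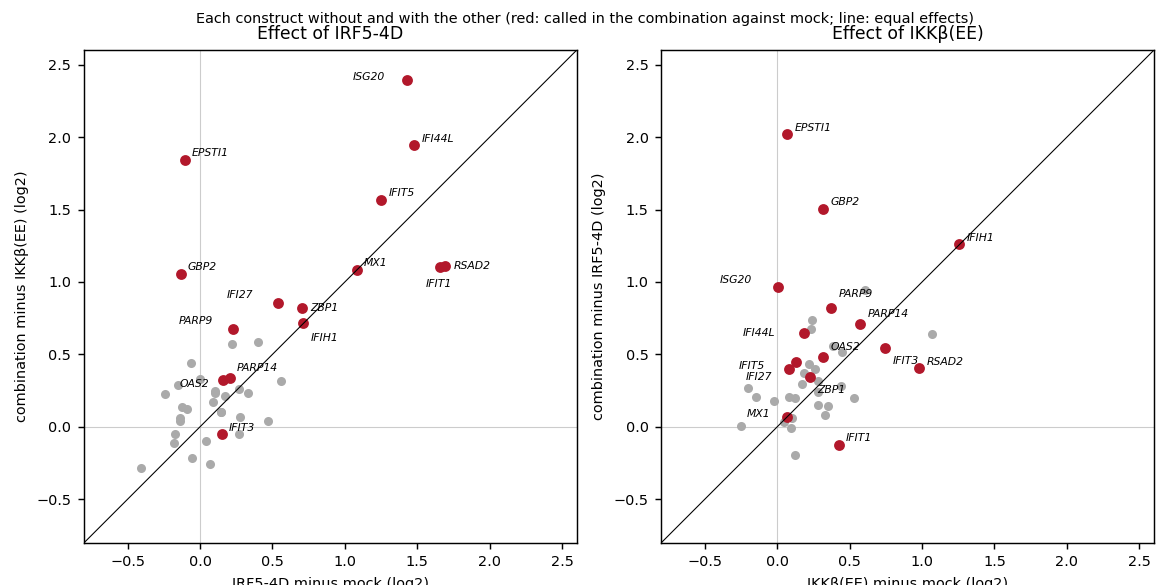
Each point is 1 of the 43 genes; the left panel plots the log2 difference made by IRF5-4D alone against that made by adding it to IKKβ(EE), and the right panel does the same for IKKβ(EE), with the line of equal differences. MX1 and IFIH1 lie near the line in both panels, while EPSTI1 and GBP2 lie far above it in both.

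The genes with several probe sets allowed a check within each gene, since each of 24 genes had 2 to 5 of them. In a fit of every probe set, 19 of the 78 probe sets were higher in the combination than in mock cells, against 2.04% of all probe sets. With IRF5-4D 4 of the 78 were higher (0.238% of all probe sets) and with IKKβ(EE) 0 (0.37%). In the combination 4 were above IRF5-4D (0.84%) and 10 above IKKβ(EE) (1.06%), 4 were higher with IRF5-4D than with IKKβ(EE) (0.258%), and the interaction was called higher for 0 (0.0535%). For IFIT5 (1.65 and 1.58), GBP2 (1.37 and 1.33), RSAD2 (2.09 and 2.16) and ISG20 (2.40 and 2.32) both probe sets were called. For the other called genes with several probe sets, only 1 passed. The second probe set of EPSTI1 differed by 0.13 (SE 0.14), that of PARP14 by -0.17 (SE 0.14) and that of PARP9 by 0.22 (SE 0.14). That of EPSTI1 read 3.07 to 3.57 over the arrays, below their lower quartiles, and that of PARP14 3.70 to 4.14, close to them. The lack of a rise in these 2 therefore cannot be read as disagreement. The 2 further probe sets of IFIH1 differed by 1.11 (SE 0.28) and 0.44 (SE 0.23), and none of these passed. The 2 further probe sets of OAS2 averaged 6.68 and 5.36 in mock cells and 6.88 and 5.69 in the combination, and neither passed. The levels of IFIH1, OAS2, PARP9, PARP14 and EPSTI1 above are thus those of 1 probe set each. IFIH1, ZBP1, OAS2 and PARP14 were no longer called in the combination when all probe sets of a gene were averaged.

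IFI44 was examined after its values were seen, because both its probe sets were below mock in the combination and 1 was called lower. This probe set read 6.92 and 6.93 in mock cells, 6.51 and 6.40 with IRF5-4D, 7.23 and 6.96 with IKKβ(EE) and 5.70 and 5.91 in the combination. The combination arrays were the lowest of the 8, and the fall against mock was -1.12 (SE 0.14, limma adjusted p = 0.00277), the 1 probe set of the 78 called lower. It was also -1.29 (SE 0.14, adjusted p = 0.00168) relative to IKKβ(EE). The other one differed by -0.20 (SE 0.17) and did not pass. IFI44L, its paralog and neighbour, rose in the same cells.

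**Figure D4:**
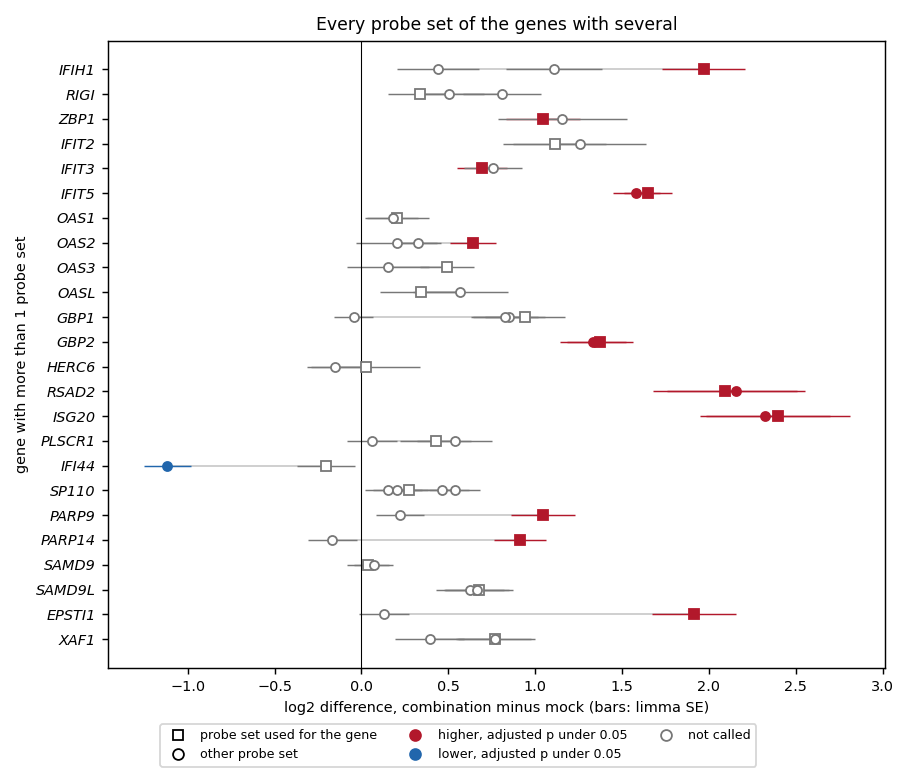
Log2 difference of the combination from mock, with the limma SE, for every probe set of the 24 genes that have more than 1; squares mark the probe set used for the gene, red is called higher and blue called lower. Both probe sets of RSAD2, ISG20, GBP2 and IFIT5 lie to the right, whereas those of EPSTI1, PARP14 and IFI44 lie apart.

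The genes that make, receive and restrain interferon signals were examined next, from a list of 55 of which 50 were measured. In the combination 7 of the 50 rose and 1 fell, beside 2.66% and 0.501% of all genes. With IKKβ(EE) 2 rose, beside 0.516% of all genes. With IRF5-4D limma called 0 of the 50, which is near the 0.314% of all genes called higher. Of the 18 measured ligands, 0 were called against mock in any group, which is also near these shares. IFNB1, the gene of interferon beta, read 3.45 and 3.45 in mock cells, 3.42 and 3.74 with IRF5-4D, 3.39 and 3.52 with IKKβ(EE) and 3.37 and 3.50 in the combination. Of these 8 values, 7 lay below the lower quartiles of the arrays and 1 just above, so its level is not shown to lie above background in any group. IFNG, the gene of interferon gamma, was 0.86 (SE 0.16, limma adjusted p = 0.0431) higher in the combination than with IRF5-4D alone, a call lost in 7 of 8 fits with 1 array left out, all but that without combination array 3.

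IRF9, the DNA-binding subunit of the complex that binds the ISRE, rose in the combination. It read 6.97 and 6.61 in mock cells, 6.97 and 6.89 with IRF5-4D, 7.09 and 7.05 with IKKβ(EE) and 8.50 and 8.98 in the combination. The 6 arrays without both constructs lay close together, and both combination arrays lay above them. The rise against mock was 1.94 (SE 0.18, 3.85-fold, limma adjusted p = 0.000434). It was also 1.81 (SE 0.18, adjusted p = 0.00193) above IRF5-4D and 1.67 (SE 0.18, adjusted p = 0.00172) above IKKβ(EE), and all 3 calls held in all 8 fits with 1 array left out.

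Of the 9 receptor and kinase genes, 4 rose in the combination, beside 2.66% of all genes. The kinase gene JAK1 rose by 1.06 (SE 0.15, limma adjusted p = 0.00575), and IFNGR2, a chain of the interferon gamma receptor, by 0.94 (SE 0.13, adjusted p = 0.00558). TYK2 rose by 0.53 (SE 0.12, adjusted p = 0.0486) in the combination and by 0.78 (SE 0.12, adjusted p = 0.0281) with IKKβ(EE). The call for TYK2 in the combination was lost in each of the 8 fits with 1 array left out, with differences from 0.45 to 0.62. Its call with IKKβ(EE) was lost in 6 of these fits, with differences from 0.69 to 0.87. IL10RB, a chain of the interferon lambda receptor, rose by 0.68 (SE 0.14, adjusted p = 0.0387) and is named after its value was seen, as is TRIM25, a ubiquitin ligase that activates RIG-I, which fell by 0.61 (SE 0.14, adjusted p = 0.0486). With 1 array left out, the call for IL10RB was lost in 7 of 8 fits, all but that without combination array 3, and that for TRIM25 in all 8, with differences from 0.51 to 0.84 and from -0.73 to -0.48. TICAM1, the adaptor of TLR3, rose by 1.02 (SE 0.14, adjusted p = 0.00404).

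SOCS1, an inhibitor of JAK kinases that is itself induced by interferon, was the gene of the pathway list with the largest rise. It read 4.996 and 4.80 in mock cells, 6.27 and 6.11 with IRF5-4D, 6.99 and 6.82 with IKKβ(EE) and 7.70 and 6.74 in the combination. Each of the 3 groups with an active construct lay above mock, and the IKKβ(EE) and combination arrays overlapped. The rise was 2.01 (SE 0.26, limma adjusted p = 0.0110) with IKKβ(EE) and 2.32 (SE 0.26, adjusted p = 0.00142) in the combination. The call with IKKβ(EE) was lost without either mock array or either IKKβ(EE) array, with differences from 1.91 to 2.10. The 3 other probe sets of SOCS1 differed by 0.39, 0.029 and 0.48 in the combination and did not pass.

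**Figure D5:**
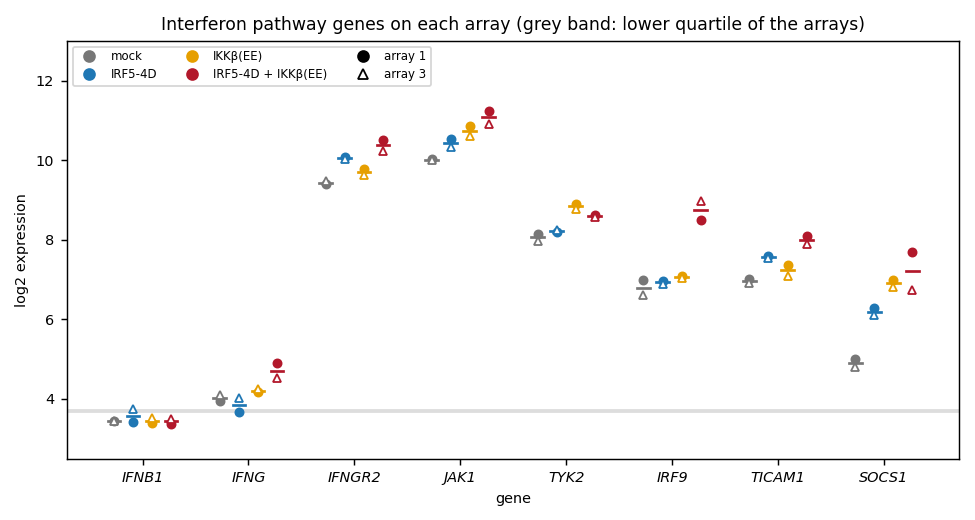
Log2 expression on each array of IFNB1 and of 7 interferon pathway genes called in some comparison; dashes are group means and the grey band is the range of the arrays' lower quartiles. IRF9 stands apart in the combination only, and IFNB1 lies below the band on 7 of the 8 arrays and just above it on 1.

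A further list of 42 interferon-stimulated genes outside the 43 gave 36 measured genes, of which 5 rose in the combination and 0 fell, beside 2.66% and 0.501% of all genes. RTP4, an inhibitor of flavivirus replication, read 8.68 and 8.43 in mock cells, 9.67 and 9.69 with IRF5-4D, 8.78 and 8.77 with IKKβ(EE) and 9.89 and 9.86 in the combination. As for MX1 and IFIT5, both groups with IRF5-4D were high and both without it were low. The rise was 1.13 (SE 0.12, limma adjusted p = 0.00508) with IRF5-4D and 1.32 (SE 0.12, adjusted p = 0.000435) in the combination, and the former was lost without either IRF5-4D array (1.13 and 1.12). GBP4 rose by 1.27 (SE 0.12, adjusted p = 0.000565), GBP5 by 0.97 (SE 0.15, adjusted p = 0.00996) and GBP3 by 0.88 (SE 0.14, adjusted p = 0.00943), all relatives of GBP2. GBP5 lost its call without mock array 3 or combination array 1, and GBP3 without combination array 1, with ranges of 0.84 to 1.10 and 0.79 to 0.97. TNFSF10, the gene of the death ligand TRAIL, rose by 1.28 (SE 0.24, adjusted p = 0.0228), a call lost without either mock array or either IRF5-4D array, with differences from 0.82 to 1.73. SAMHD1, a nucleotide hydrolase, went another way. It read 8.48 and 8.65 in mock cells, 8.79 and 8.82 with IRF5-4D, 9.64 and 9.76 with IKKβ(EE) and 8.92 and 9.07 in the combination. The IKKβ(EE) arrays stood above all others, with a rise of 1.13 (SE 0.12, adjusted p = 0.00419) against mock, and the combination was -0.70 (SE 0.12, adjusted p = 0.0242) relative to IKKβ(EE). ZC3HAV1, the zinc-finger antiviral protein, was -0.80 (SE 0.14, adjusted p = 0.0266) in the same comparison. Against IKKβ(EE), the call for SAMHD1 was lost without either IRF5-4D array, either IKKβ(EE) array or combination array 1, and also when the less specific _x_at probe sets were left out. That for ZC3HAV1 was lost without either IKKβ(EE) array or combination array 3. With 1 array left out the differences ranged from -0.78 to -0.63 and from -0.94 to -0.67. The median of the 36 genes in the combination was 0.14, against 0.50 for the 43 genes and -0.027 for all genes.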

How the data were processed

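Total RNA of 8 Reh cultures in 4 groups was hybridised to Affymetrix U133 Plus 2.0 arrays. The authors deposited log2 values for each probe set on every array and made them with RMA, per the submitters' processing notes. RMA corrects background, normalizes quantiles and summarises probes, and its version is not stated in the sources used here. Groups and replicate numbers came from the sample labels. Of 54675 probe sets, 62 controls and 13522 without exactly 1 symbol in the platform annotation were left out. Each of 19775 genes was represented by the probe set whose mean across the 8 arrays was highest, with no filter on level. Entrez identifiers of 19735 genes were found in a RefSeq table, and 0 symbols differed.

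Group means were modelled across the 8 arrays in limma 3.58.1 (R 4.3.3, lmFit and eBayes, 4 residual and 5.09 prior degrees of freedom). Adjustment followed Benjamini and Hochberg and covered every gene, with a threshold of 0.05. Differences are group means on the log2 scale with the moderated standard error (SE). The number of arrays limits the precision, and p-values measure the spread between the duplicates of 1 cell line. The procedure was tested on simulated data. The members and lists were chosen with earlier results of these data known. The text names the genes called in at least 1 comparison, at most 8 others with the highest mean levels, and up to 14 called pathway genes by size, besides IFNB1, IRF5 and IKBKB. Other genes are named where a count of 5 or fewer falls on them or are said to be chosen after their values were seen.

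As alternatives, the probe sets of each gene were averaged, _x_at probe sets were dropped, or each of 41091 probe sets was tested by itself. Further ones were genes above the median level, median centring, quantile normalization, limma with trend or robust variance, a block for the replicate number, only the groups compared, and each array left out in turn; a group left with 1 array was then assumed to vary like the others.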

Additional observations from a re-analysis of the deposited data

How the results depend on the processing

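No called difference changed sign in the alternative fits. Counting each named gene once per comparison and alternative fit, 866 values kept their side of the threshold and 254 lost the call. Leaving out 1 array at a time gave 8 to 14 called genes for the combination against mock (15 with all arrays), 0 to 4 for IRF5-4D against mock (3), 1 to 4 for the combination against IRF5-4D (3), 2 to 9 against IKKβ(EE) (8) and 0 to 4 for IRF5-4D against IKKβ(EE) (3). For probe sets these ranges were 11 to 19 (19) in the combination, lowest without combination array 1, and 0 to 5 (4) with IRF5-4D, lowest without mock array 3 or IRF5-4D array 1. A fit of only the groups compared called 9 genes and 11 probe sets in the combination against mock, and 5 genes in the combination against IKKβ(EE). Genes above the median level gave 0 calls against IRF5-4D and 4 against IKKβ(EE), where GBP2, IFI44L, IFI27, EPSTI1 and ZBP1 fell below that level and IFIH1 lost its call against IRF5-4D. Over all genes, calls in the combination were 526 higher and 99 lower, 259 and 21 with only the groups compared, and 321 higher without combination array 1. Averaging probe sets gave 56 higher calls over all genes with IKKβ(EE) (102 without averaging), 41 with IRF5-4D (62) and 8 for the interaction (19). With the replicate number as a block, called genes were 5 with IRF5-4D (RSAD2 and ISG20 added), 4 with IKKβ(EE) (IFIH1, IFIT2, IFIT3 and RSAD2), 18 in the combination (IFIT2, GBP1 and UBE2L6 added), 7 against IRF5-4D and 1, EPSTI1, for the interaction; probe sets were 8, 7 and 29 in the contrasts with mock. All calls without the block remained. The share of all genes or probe sets called with the block is not given here, so the added calls are not read as particular to these genes. The sources used here do not state what the numbers 1 and 3 stand for, and the differences between arrays 1 and 3 correlated between groups at -0.07 to 0.34 over all genes and at 0.18 to 0.65 over the 43 genes. With 2 numbers only, the samples were taken to share a number, not a pairing, so the main results are those without the block. Levels near the lower quartile limit the sizes for IFI44L, EPSTI1 and ZBP1.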
